A study of Homo sapiens with 6 samples.

Results

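The desmosome genes are 10 genes whose products build the desmosome, the junction that ties the keratin filaments of neighbouring epithelial cells together. They were chosen by name, as the rows of the expression table for DSP, JUP, PKP1, PKP2, PKP3, DSG2, DSG3, DSC2, DSC3 and PERP, and all 10 were found among the 19421 genes that the table gives on one scale. Expression was measured by RNA sequencing in 6 samples of A431, an established line of human squamous carcinoma cells with EGFR gene amplification, kept in DMEM with 10% FBS. In 3 samples the cells expressed an shRNA against ARID1A (shARID1A), which encodes the DNA-binding subunit of the BAF chromatin remodelling complex, and in 3 samples they expressed a control shRNA (shCONTROL). The labels give no time after shRNA delivery, do not say how many different shRNAs or clones were used, and do not state that samples were cultured separately. The p-values therefore measure the spread between these samples alone, which may be technical.

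In a desmosome, the cadherins of the desmoglein and desmocollin families span the membrane and bind their partners on the next cell. Inside the cell, plakoglobin (JUP) and the plakophilins bind the cadherin tails and form the outer plaque, and desmoplakin (DSP) links this plaque to keratin. PERP is a tetraspan membrane protein of the desmosome, and its gene is a target of the transcription factor p63. In stratified epithelia the isoforms are layered: DSG2 and PKP2 are the isoforms of simple epithelia and of heart, and in the epidermis DSG3 and DSC3 belong to the basal layers while DSG1, DSC1 and PKP1 are the isoforms of the upper layers.

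Levels are given in FPKM, a gene's reads divided by its length and by the sample's total of reads assigned to genes. The totals of assigned reads, worked back from the FPKM values and gene lengths, were 32561039 to 36453744 in the shARID1A samples and 31658040 to 34647924 in the shCONTROL samples. The targeted gene checked the labels: ARID1A stood at 6.70, 7.62 and 7.31 FPKM in the shARID1A samples, against 22.8, 22.8 and 23.8 FPKM in the shCONTROL samples. Each fold change is the mean of log2(FPKM + 1) in shARID1A samples minus that in shCONTROL samples, a scale that understates the change of genes at low FPKM. They were tested with limma over the 11599 genes that averaged 1 FPKM or more, with Benjamini-Hochberg adjustment over all of them, and a gene rose or fell where the adjusted p was below 0.05. Of all genes tested, 16.8% passed, 5.85% higher and 10.9% lower, and the median log2 fold change was -0.08. After quantile normalization the calls split otherwise, with 15.3% of genes passing, 8.16% higher and 7.16% lower. With 1 library left out, 6.78, 14.4 and 29.3% of genes passed without shARID1A replicates 1, 2 and 3, and 6.45, 5.06 and 12.1% without shCONTROL replicates 1, 2 and 3. Without the filter on low values 7.77% passed, and 15.8% at an equal FPKM sum per sample. The 6 squamous epithelial markers summed to 910 to 1013 FPKM in shARID1A samples and to 1083 to 1141 FPKM in shCONTROL samples, and KRT5 and KRT8 fell among the 5 tested. EPCAM and CDH1 stood at 96.8 FPKM or more in every sample, while KRT14, a basal keratin, reached at most 0.85 FPKM. Of 5 fibroblast markers, COL1A2, COL3A1 and PDGFRB reached at most 0.20 FPKM and COL1A1 at most 3.13 FPKM. LUM, which encodes lumican, was the 1 of them that rose, at 8.96, 7.39 and 9.96 FPKM in shARID1A samples, against 4.08, 3.88 and 5.97 FPKM in shCONTROL samples (limma, adjusted p = 0.0156). The summed FPKM of the fibroblast list ran from 10.3 to 12.5 in shARID1A samples and from 6.56 to 8.96 in shCONTROL samples, and its part in the results below was not tested. Of the immune markers CD68 alone passed 1 FPKM, and those of endothelium and heart muscle summed to at most 0.37 FPKM in any sample.

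The desmosome genes did not move as a unit. With the ARID1A shRNA the plakophilin gene PKP2 nearly doubled, while the plaque genes DSP and JUP and the cadherin gene DSG3 fell. Of the 10 genes, 9 were tested and 4 of these passed, 1 higher and 3 lower, beside the 16.8% of all genes that passed. The other 5 tested genes, PKP3, DSG2, DSC2, DSC3 and PERP, did not pass. The median log2 fold change of the 9 tested was -0.48, beside -0.08 for all genes tested. The groups of 3 did not overlap for 7 of the 10, PKP2 and DSG2 higher and DSP, JUP, DSG3, DSC2 and PERP lower, and 38.8% of all genes tested had groups that did not overlap (13.4% higher, 25.4% lower). RNA from bulk samples does not tell fewer cells that express a gene from less RNA per cell.

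**Figure D1:**
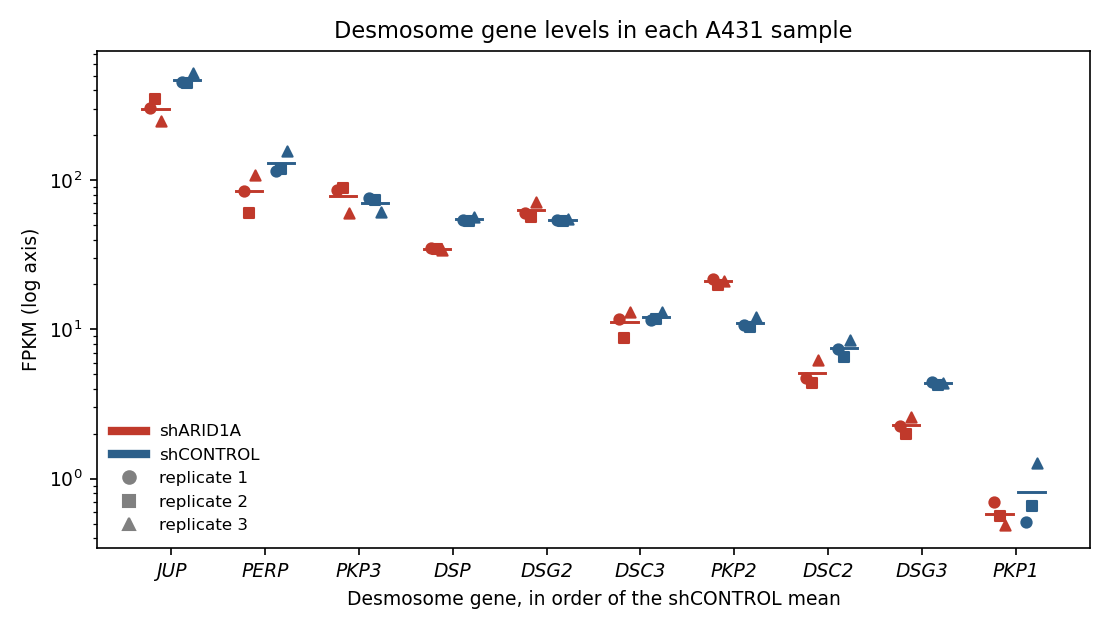
FPKM on a log axis of the 10 desmosome genes in each of the 3 shARID1A samples (left of each pair) and the 3 shCONTROL samples (right), with bars at the group means and marker shapes for the replicate number. PKP2 and DSG2 stand higher in every shARID1A sample, and DSP, JUP, DSG3, DSC2 and PERP stand lower in every shARID1A sample. Of these, DSG2, DSC2 and PERP did not pass. The levels span from 0.49 FPKM in the lowest sample for PKP1 to 519 FPKM in the highest for JUP.

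The levels ran in a steep order. Between genes FPKM corrects for length alone, so this order, and the sums and shares over genes, are approximate. In the shARID1A samples the order of the means was JUP, PERP, PKP3, DSG2, DSP, PKP2, DSC3, DSC2, DSG3 and PKP1, and the neighbours PERP and PKP3 and the neighbours PKP3 and DSG2 overlapped in range. In the shCONTROL samples the order was JUP, PERP, PKP3, DSP, DSG2, DSC3, PKP2, DSC2, DSG3 and PKP1, and there the neighbours DSP and DSG2 and the neighbours DSC3 and PKP2 overlapped. DSG2 thus stood above DSP, and PKP2 above DSC3, with no overlap in the shARID1A samples, where in the shCONTROL samples each of these pairs overlapped. JUP had a mean over the 6 samples above that of 99.0% of all genes tested, and DSG3 above that of 19.99%.

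Among the plaque genes, desmoplakin, the link to keratin, changed with the least spread. DSP (gene ID 1832) had 35.0, 34.6 and 33.9 FPKM in shARID1A samples, against 53.7, 53.4 and 56.9 FPKM in shCONTROL samples. Every shARID1A sample lay below every shCONTROL sample, and the means were 34.5 ± 0.56 FPKM in shARID1A samples and 54.7 ± 1.97 FPKM in shCONTROL samples (SD, n = 3 each), which is 36.9% lower. Its log2 fold change was -0.65 (standard error 0.081, limma, adjusted p = 0.00245), and between 10964 and 19196 reads lay behind each value.

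JUP (gene ID 3728) encodes plakoglobin, an armadillo protein shared by desmosomes and adherens junctions. It had 304, 349 and 249 FPKM in shARID1A samples, against 451, 445 and 519 FPKM in shCONTROL samples, and the groups did not overlap. Replicate 3 was the lowest shARID1A sample and the highest shCONTROL sample. The means were 301 ± 50.6 FPKM in shARID1A samples and 472 ± 40.9 FPKM in shCONTROL samples (SD, n = 3 each), with a log2 fold change of -0.66 (standard error 0.13, limma, adjusted p = 0.0139). The adjusted p came near the threshold, at up to 0.0486, without shARID1A replicate 1 or any 1 of the shCONTROL samples.

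PKP2 (gene ID 5318) encodes plakophilin 2, the plakophilin of simple epithelia and heart, and was the 1 desmosome gene that rose. It had 21.9, 19.9 and 21.0 FPKM in shARID1A samples, against 10.7, 10.4 and 12.0 FPKM in shCONTROL samples. The lowest shARID1A sample lay well above the highest shCONTROL sample, and the means were 20.9 ± 0.99 FPKM in shARID1A samples and 11.04 ± 0.86 FPKM in shCONTROL samples (SD, n = 3 each), a ratio of 1.90. PKP2 had a log2 fold change of 0.87 (standard error 0.098, limma, adjusted p = 0.00173), and 2.95% of all genes tested had a larger absolute log2 fold change.

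The other plakophilins did not pass. PKP3 (gene ID 11187), the plakophilin found through all layers of stratified epithelia, had 85.5, 88.5 and 59.8 FPKM in shARID1A samples, against 75.9, 73.5 and 61.6 FPKM in shCONTROL samples. Replicate 3 was the lowest in both groups, and the groups overlapped. Its log2 fold change of 0.13 had a 95% interval from -0.23 to 0.49 (limma, adjusted p = 0.597). It was 0.31 without shARID1A replicate 3 (adjusted p = 0.0576), 0.05 without shARID1A replicate 1, 0.03 without shARID1A replicate 2 and 0.04 without shCONTROL replicate 3. PKP1 (gene ID 5317), the plakophilin of the upper epidermis, had 0.69, 0.56 and 0.49 FPKM in shARID1A samples, against 0.52, 0.65 and 1.27 FPKM in shCONTROL samples. With 89 to 240 reads a sample it lay below the minimum of 1 FPKM and was not tested, and without that filter its log2 fold change was -0.18 (limma, adjusted p = 0.532). The difference was -0.0049 without shCONTROL replicate 3 and -0.30 without shCONTROL replicate 1. PKP2 made up 20.3, 18.3 and 25.8% of the summed FPKM of the 3 plakophilin genes in shARID1A samples, against 12.3, 12.3 and 16.1% in shCONTROL samples. PKP3 made up most of that sum in both groups, 78.0% on average in shARID1A samples and 85.4% in shCONTROL samples.

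**Figure D2:**
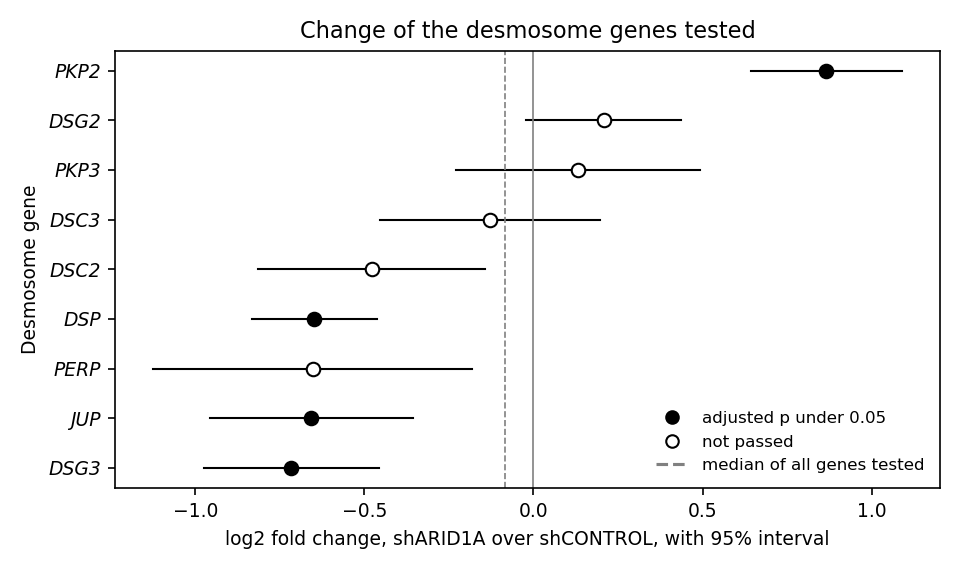
Log2 fold change, shARID1A over shCONTROL, of the 9 desmosome genes tested, with 95% intervals from limma; filled points had an adjusted p under 0.05 and the dashed line is the median of all genes tested. PKP2 stands alone to the right at 0.87, and DSG3, JUP and DSP lie between -0.72 and -0.65, beside PERP and DSC2, which did not pass.

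Among the desmogleins, DSG3 fell and DSG2 did not. DSG3 (gene ID 1830), the basal desmoglein and the antigen of pemphigus vulgaris, had 2.25, 2.003 and 2.58 FPKM in shARID1A samples, against 4.47, 4.24 and 4.40 FPKM in shCONTROL samples. The groups were far apart against their spread, with means of 2.28 ± 0.29 FPKM in shARID1A samples and 4.37 ± 0.12 FPKM in shCONTROL samples (SD, n = 3 each), which is 47.9% lower. DSG3 had a log2 fold change of -0.72 (standard error 0.11, limma, adjusted p = 0.00544), from 362 to 847 reads a sample. DSG2 (gene ID 1829), the widely expressed desmoglein, had 60.5, 57.0 and 70.9 FPKM in shARID1A samples, against 53.8, 53.1 and 55.3 FPKM in shCONTROL samples. Each shARID1A sample lay above each shCONTROL sample, but the log2 fold change of 0.21 had a 95% interval from -0.02 to 0.44 and did not pass (limma, adjusted p = 0.185), and it was 0.12 without shARID1A replicate 3.

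The ratio of these paralogs did not overlap between the groups. DSG3 stood at 0.0373, 0.0351 and 0.0364 of the FPKM of DSG2 in shARID1A samples, against 0.0832, 0.0800 and 0.0797 in shCONTROL samples. The mean log2 ratio differed by -1.16, with SDs of 0.043 and 0.034 among the shARID1A and the shCONTROL samples (exact two-sided permutation test, p = 0.1, 0.125 after adjustment over 5 ratios, and 0.1 is the smallest value that 3 samples against 3 can give). A ratio within a sample does not depend on a scale factor shared by all genes of that sample. Quantile normalization is not such a factor, and the ratios were not computed after it.

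Neither desmocollin gene passed. DSC2 (gene ID 1824), the widely expressed desmocollin, had 4.76, 4.35 and 6.26 FPKM in shARID1A samples, against 7.42, 6.57 and 8.48 FPKM in shCONTROL samples, with no overlap. Its log2 fold change of -0.48 had a 95% interval from -0.81 to -0.14 before adjustment and did not pass (limma, adjusted p = 0.058). Its adjusted p was 0.0168 in a fit with a term for replicate number, called the replicate block from here on. DSC3 (gene ID 1825), the basal desmocollin, had 11.7, 8.80 and 13.0 FPKM in shARID1A samples, against 11.5, 11.8 and 13.1 FPKM in shCONTROL samples, and the groups overlapped. Its log2 fold change of -0.13 had a 95% interval from -0.45 to 0.20 (limma, adjusted p = 0.564). Without shARID1A replicate 2 the log2 fold change had the other sign (0.020), and it was -0.24 without shARID1A replicate 3 and -0.08 without shCONTROL replicate 3. DSC3 stood at 2.46, 2.02 and 2.07 times the FPKM of DSC2 in shARID1A samples, against 1.55, 1.80 and 1.55 times in shCONTROL samples (exact permutation test, p = 0.1, 0.125 adjusted over 5 ratios).

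PERP (gene ID 64065) varied most between replicates of a group among the genes above 1 FPKM. It had 84.0, 60.2 and 108 FPKM in shARID1A samples, against 116, 118 and 157 FPKM in shCONTROL samples. The groups did not overlap, since the highest shARID1A sample lay below the lowest shCONTROL sample, and the means were 84.1 ± 23.9 FPKM in shARID1A samples and 131 ± 23.3 FPKM in shCONTROL samples (SD, n = 3 each). The log2 fold change was -0.65 with a 95% interval from -1.13 to -0.18 before adjustment and did not pass (limma, adjusted p = 0.0636), while with the replicate block the adjusted p was 0.00768. DSG2, DSC2, DSC3 and PERP were each highest in replicate 3 of both groups. With the block, 1 desmosome gene rose and 5 fell, DSC2 and PERP joining DSP, JUP and DSG3, beside 23.6% of all genes passing, 8.12% higher and 15.5% lower. The same 6 genes passed without shARID1A replicate 3, beside 9.62% of all genes higher and 19.7% lower, and with voom on the recovered reads, beside 18.4% passing, 6.41% higher and 12.0% lower.

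**Figure D3:**
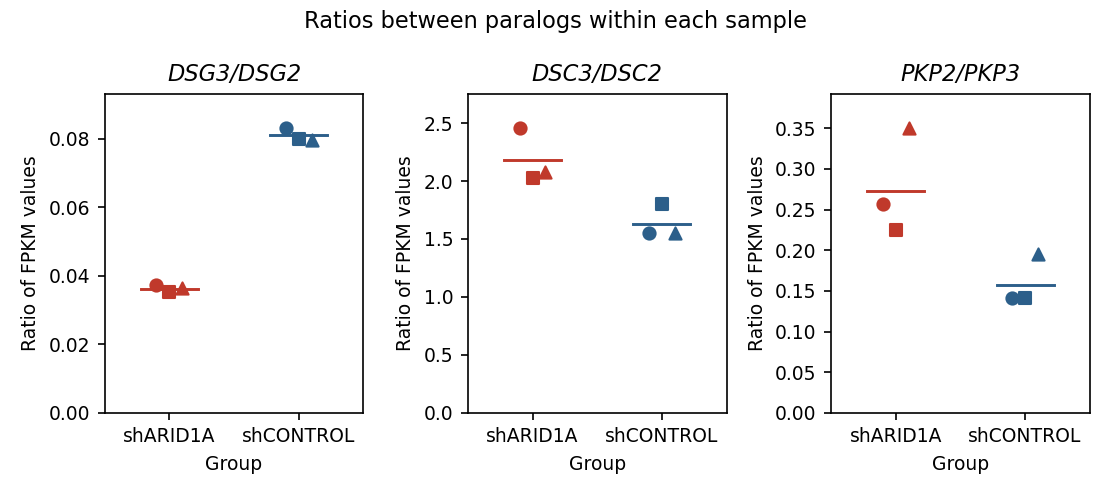
Ratio of the FPKM values of paralogs within each sample, on linear axes from 0, for DSG3 over DSG2, DSC3 over DSC2 and PKP2 over PKP3, with the shARID1A samples left of the shCONTROL samples bars at the geometric means, and circles, squares and triangles for replicates 1, 2 and 3. The DSG3 to DSG2 ratio lies at 0.0351 to 0.0373 in shARID1A samples and at 0.0797 to 0.0832 in shCONTROL samples, and the other ratios are higher in all shARID1A samples.

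The summed level of the cadherin genes overlapped between the groups, and that of the plaque genes, most of it from JUP, did not. The FPKM of DSG2, DSG3, DSC2 and DSC3 summed to 79.2, 72.1 and 92.7 in shARID1A samples, against 77.2, 75.7 and 81.3 in shCONTROL samples. Within that sum DSG2 took 76.4, 79.0 and 76.5% in shARID1A samples, against 69.7, 70.1 and 68.0% in shCONTROL samples. DSG3 took 2.85, 2.78 and 2.78% in shARID1A samples, against 5.79, 5.61 and 5.42% in shCONTROL samples. The FPKM of DSP, JUP and the 3 plakophilin genes summed to 448, 493 and 364 in shARID1A samples, against 592, 583 and 651 in shCONTROL samples, with no overlap. JUP made up most of this sum, 69.1 ± 1.56% in shARID1A samples and 77.4 ± 2.0% in shCONTROL samples (SD, n = 3 each). These sums and shares are descriptions without a test. The PKP2 to PKP3 ratio was 0.256, 0.225 and 0.351 in shARID1A samples, against 0.141, 0.142 and 0.195 in shCONTROL samples (exact permutation test, p = 0.1, 0.125 adjusted over 5 ratios). The PKP1 to PKP2 ratio differed by -1.32 on the log2 scale with the same p, and the PKP1 to PKP3 ratio by -0.53 (exact permutation test, p = 0.4). The difference in the PKP1 to PKP3 ratio was -0.057 without shCONTROL replicate 3 and -0.86 without shCONTROL replicate 1.

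In the RefSeq annotation of GRCh38.p14 all 4 desmosomal cadherin genes lie in one cluster on chromosome 18, in the order DSC3, DSC2, DSC1, DSG1, DSG4, DSG3 and DSG2, so DSG3, which fell, is the direct neighbour of DSG2, which did not. The genome build behind the deposited table is not given in the sources used here, and this order is used for neighbourhood only. DSG1 reached at most 0.0043 FPKM and DSC1 at most 0.061 FPKM in any sample, and DSG4 was not analysed here. The lncRNA genes DSG2-AS1 and DSCAS overlap DSG2 and DSC2, and reads of overlapping genes cannot be told apart where strand is unknown. The table lists both at 0.12 FPKM or less. DSP-AS1 over DSP, the pseudogene RPL35AP27 over PKP2, LOC124904345 over DSC3 and the pseudogene LOC124904377 over DSC2 also overlap in RefSeq and were not analysed here, so their part in the values of DSP, PKP2, DSC3 and DSC2 was not tested.

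The windows around the gene starts are shown for the 3 genes that fell, DSP, JUP and DSG3, and for DSG2, the neighbour of DSG3. Each window runs from 250 bases before to 50 bases after the start in RefSeq (GRCh38.p14), on the gene's own strand, and such windows were found for 8 of the 10 desmosome genes, 10 windows in all, with PKP2 and PKP3 not among them. Capitals mark CACCTG or its reverse complement CAGGTG, the E-box that factors of the Snail and ZEB families bind. The DSP window is chr6:7541421-7541720 (plus strand), and JUP has 2 windows on the minus strand, chr17:41786662-41786961 and chr17:41785927-41786226. The DSG3 window is chr18:31447491-31447790 and the DSG2 window chr18:31497927-31498226, both on the plus strand.
DSP: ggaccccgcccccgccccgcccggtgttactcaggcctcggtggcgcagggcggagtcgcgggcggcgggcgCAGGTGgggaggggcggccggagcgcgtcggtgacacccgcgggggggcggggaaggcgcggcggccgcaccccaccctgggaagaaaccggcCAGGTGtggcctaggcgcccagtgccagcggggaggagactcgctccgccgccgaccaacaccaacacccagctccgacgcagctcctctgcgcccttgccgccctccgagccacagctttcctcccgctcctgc
JUP, outer start: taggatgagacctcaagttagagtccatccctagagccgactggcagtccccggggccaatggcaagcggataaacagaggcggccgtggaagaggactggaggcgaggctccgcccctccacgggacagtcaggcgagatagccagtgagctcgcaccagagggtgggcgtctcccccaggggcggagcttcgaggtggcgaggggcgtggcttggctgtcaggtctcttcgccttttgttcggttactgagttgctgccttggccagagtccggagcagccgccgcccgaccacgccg
JUP, inner start: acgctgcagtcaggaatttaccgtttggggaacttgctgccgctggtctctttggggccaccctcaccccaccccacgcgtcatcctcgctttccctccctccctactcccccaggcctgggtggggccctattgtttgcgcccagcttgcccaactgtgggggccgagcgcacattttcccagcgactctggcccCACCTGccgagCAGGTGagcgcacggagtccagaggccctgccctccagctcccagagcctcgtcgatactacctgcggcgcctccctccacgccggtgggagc
DSG3: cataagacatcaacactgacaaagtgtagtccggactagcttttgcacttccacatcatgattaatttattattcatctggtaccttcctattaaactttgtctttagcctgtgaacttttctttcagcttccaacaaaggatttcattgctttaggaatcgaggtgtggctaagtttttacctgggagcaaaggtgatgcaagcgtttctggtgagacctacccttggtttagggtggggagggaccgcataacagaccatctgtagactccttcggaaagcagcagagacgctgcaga
DSG2: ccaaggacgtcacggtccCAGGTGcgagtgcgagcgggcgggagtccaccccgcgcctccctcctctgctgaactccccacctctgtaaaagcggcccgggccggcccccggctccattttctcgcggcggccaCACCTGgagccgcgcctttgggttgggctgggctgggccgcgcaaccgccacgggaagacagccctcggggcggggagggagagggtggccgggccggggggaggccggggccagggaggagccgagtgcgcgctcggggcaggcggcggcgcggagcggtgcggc

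The neighbours DSG3 and DSG2 differed in base composition. The DSG3 window holds 6 CG dinucleotides at 44.0% G and C, the fewest among the 10 windows, and the DSG2 window holds 36 at 76.7%. The DSP window holds 37, the JUP windows 23 and 19, and the median over all 35116 RefSeq windows is 14. A relation of CG content to the changes was not tested. The E-box CACCTG, searched on both strands, was found in 4 of the 10 windows, from DSP, JUP, DSG2 and DSC2. Of all windows 20.6% hold it. It stands 2 times in the DSP window, 2 times in the inner JUP window and 2 times in the DSG2 window. The outer JUP window and the DSG3 window hold it 0 times. A part of this motif in the changes was not tested. GGGCGG, the GC box, was in 7 of the 10 windows, from 6 desmosome genes, and in 45.0% of all windows. TGANTCA, the AP-1 motif, was in the PERP window alone (7.71% of all windows). AACNNGTT, the Grainyhead motif (3.52%), and TATAAA (11.5%) were in none of the 10 windows. A match describes the letters only, and no binding was measured.

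The genes whose levels ran most like those of DSP over the 6 samples, among 10766 protein-coding genes tested outside the desmosome genes, were IP6K2, NIPAL3 and TSPYL1, with Pearson r of 0.997 each on the log2 scale. IP6K2, an inositol hexakisphosphate kinase, had 13.5, 13.8 and 13.7 FPKM in shARID1A samples, against 20.2, 19.9 and 20.6 FPKM in shCONTROL samples. The samples form 2 groups, so a high r describes mainly the difference between the groups. NIPAL3 and TSPYL1 had log2 fold changes of -0.69 and -0.75.

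Genes that act beside desmosomes were read from 6 lists, which were chosen with earlier results of these data known. Of the keratins, the filaments that desmoplakin anchors, 6 of 10 tested fell and 0 rose (limma; none of the 10 was higher at an unadjusted p below 0.05 or by voom), with a median log2 fold change of -0.52, beside 10.9% of all genes lower. KRT19, a simple epithelial keratin, had 673, 717 and 596 FPKM in shARID1A samples, against 1138, 1130 and 993 FPKM in shCONTROL samples (limma, adjusted p = 0.00344). KRT16, an injury keratin, had 5.82, 6.92 and 4.36 FPKM in shARID1A samples, against 13.2, 14.95 and 22.6 FPKM in shCONTROL samples (adjusted p = 0.00452). KRT8, the partner of KRT18 in simple epithelia, averaged 334 ± 15.7 FPKM in shARID1A samples and 448 ± 7.92 FPKM in shCONTROL samples (SD, n = 3 each; adjusted p = 0.00996). KRT18 averaged 350.3 ± 12.0 FPKM in shARID1A samples and 336 ± 4.10 FPKM in shCONTROL samples and did not pass (adjusted p = 0.609). Without shCONTROL replicate 1, 3 keratins fell, where 6.45% of all genes passed in either direction. Without shCONTROL replicate 2, 2 fell (5.06% of all genes passing), and without the filter on low values 3 fell (7.77%). Without shARID1A replicate 3, 5 keratins fell and 1, KRT17, rose, beside 19.7% of all genes lower and 9.62% higher. KRT17 had 1233, 1271 and 754 FPKM in shARID1A samples, against 908, 908 and 1148 FPKM in shCONTROL samples, and with all samples it did not pass (adjusted p = 0.742). The call for KRT8 ended without shCONTROL replicate 1 or 2 (adjusted p up to 0.0669). Keratin genes have close paralogs, among them pseudogenes, so their exact levels are uncertain.

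The adherens junction genes encode the other cadherin junction. Of 8 tested 0 rose and 0 fell by limma, beside 5.85% of all genes higher and 10.9% lower. At an unadjusted p below 0.05, 2 were lower, CTNNA1 and CTNNB1, and CTNNA1 alone was lower by voom. The share of all genes at that unadjusted p was not computed, so unadjusted counts here and in the other lists have no background. CTNNB1, which encodes beta-catenin, the armadillo relative of plakoglobin, had 163, 158 and 132 FPKM in shARID1A samples, against 179, 180 and 188 FPKM in shCONTROL samples (adjusted p = 0.0888). CTNNA1, which encodes alpha-catenin, averaged 155 ± 10.6 FPKM in shARID1A samples and 194 ± 19.0 FPKM in shCONTROL samples (SD, n = 3 each; adjusted p = 0.0616), and its adjusted p was 0.0283 with the replicate block and 0.0424 without shCONTROL replicate 3. PKP4, an armadillo relative of the plakophilins, had a log2 fold change of 0.24 (adjusted p = 0.17). AFDN and the nectin genes were not analysed here. Of the other desmosome-associated plaque genes, PPL and EVPL were tested and 0 of 2 passed by limma or by voom. The keratin linker gene PPL, periplakin, had an unadjusted p below 0.05, a log2 fold change of -0.37 and an adjusted p of 0.0748, against 0.0281 when replicate number was a block.

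The next list held plakin genes and genes of hemidesmosomes, the junctions that anchor keratin to the basement membrane. Of 7 tested 2 rose and 1 fell (median log2 fold change -0.04), beside 5.85% of all genes higher and 10.9% lower. PLEC, the plakin plectin, had 220, 247 and 180 FPKM in shARID1A samples, against 308, 325 and 309 FPKM in shCONTROL samples (limma, adjusted p = 0.0179). ITGB4, the integrin of the hemidesmosome, averaged 228 ± 45.2 FPKM in shARID1A samples and 136 ± 10.7 FPKM in shCONTROL samples (SD, n = 3 each), and COL17A1, its transmembrane collagen, 22.2 ± 0.95 FPKM in shARID1A samples and 12.5 ± 4.41 FPKM in shCONTROL samples. With the replicate block 2 rose and 3 fell, DST and EPPK1 joining PLEC. The calls for PLEC, ITGB4 and COL17A1 each ended when shARID1A replicate 1, shCONTROL replicate 1 or shCONTROL replicate 2 was left out, with adjusted p up to 0.0868 for PLEC, 0.0640 for ITGB4 and 0.103 for COL17A1, and that for COL17A1 also without shARID1A replicate 2 or without the filter (0.0668).

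Of 11 tested transcription factors of epithelial junction genes, 2 fell, TP63 and KLF4, and 0 rose by limma, by voom or at an unadjusted p below 0.05 (median log2 fold change -0.16). Of all genes tested, 10.9% were lower and 5.85% higher, so a count of 2 in 11 stands near the background. TP63, which encodes p63, a factor of basal keratinocytes whose targets include PERP, had 32.7, 33.2 and 36.8 FPKM in shARID1A samples, against 47.9, 47.3 and 47.3 FPKM in shCONTROL samples (limma, adjusted p = 0.0106). OVOL1, a zinc finger factor of epithelial differentiation, had a log2 fold change of -0.49 and missed the threshold (adjusted p = 0.0513). KLF4 averaged 8.31 ± 0.18 FPKM in shARID1A samples and 10.9 ± 0.23 FPKM in shCONTROL samples (SD, n = 3 each), and passed at 0.0341 adjusted, but not after quantile normalization (0.108). With the replicate block the adjusted p of OVOL1 was 0.0446. By voom 3 factors fell, OVOL1 joining at an adjusted p of 0.0436, beside 12.0% of all genes lower. None passed without shARID1A replicate 1 or shCONTROL replicate 1 or 2, where the adjusted p of TP63 reached 0.0667, and 1 passed without shCONTROL replicate 3.

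Of 11 enzymes linked to desmosomal proteins, some of them only indirectly, 1 rose and 1 fell (median log2 fold change -0.01). These counts too stand near the background of 5.85% higher and 10.9% lower. Both genes encode membrane proteases of the ADAM family. ADAM17, which can shed the DSG2 ectodomain, had 25.1, 24.5 and 28.9 FPKM in shARID1A samples, against 32.8, 36.3 and 35.8 FPKM in shCONTROL samples (limma, adjusted p = 0.0276). ADAM9 had 172, 159 and 213 FPKM in shARID1A samples, against 129, 126 and 142 FPKM in shCONTROL samples (adjusted p = 0.0385). The call for ADAM17 ended when any library but shARID1A replicate 3 was left out (up to 0.137), and that for ADAM9 without any but shARID1A replicate 2 or 3 (up to 0.153), and after quantile normalization (0.0759), without the filter (0.0786) or at an equal FPKM sum per sample (0.0512). GSK3B, a kinase that phosphorylates the desmoplakin tail, had a log2 fold change of -0.25 (adjusted p = 0.104).

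**Figure D4:**
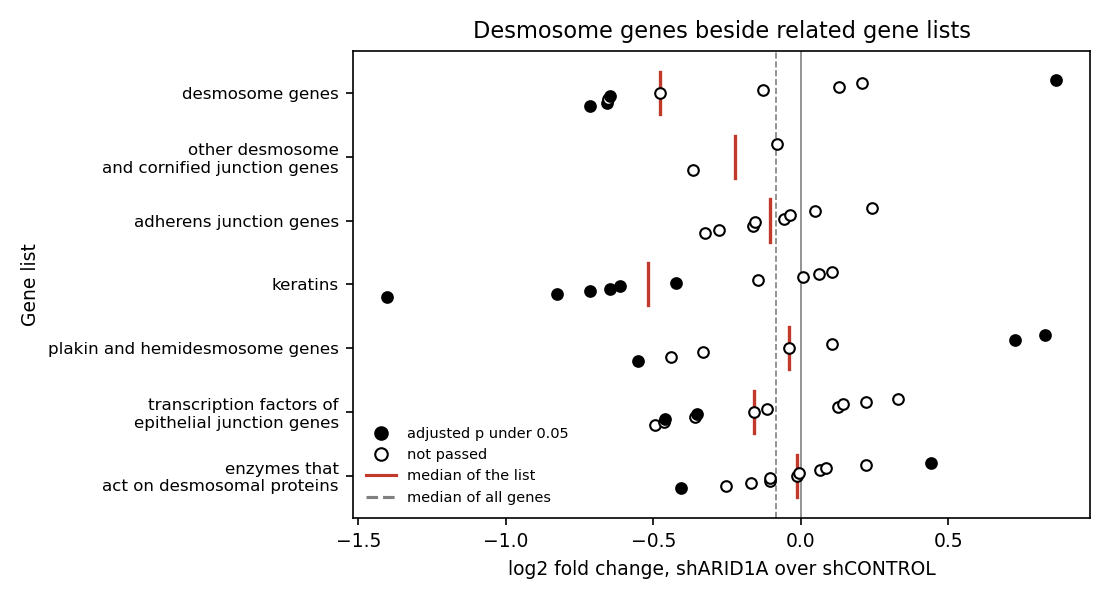
Log2 fold change, shARID1A over shCONTROL, of the desmosome genes and of the tested genes of the 6 related lists, 1 point per gene, filled where the adjusted p was under 0.05, with the median of each list in red and that of all genes as a dashed line. The medians of the desmosome genes (-0.48) and of the keratins (-0.52) lie left of the median of all genes (-0.08), and PKP2 is the desmosome gene farthest to the right. The lists were chosen with earlier results of these data known.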

How the data were processed

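The values are FPKM as deposited by the authors, beside each gene's length. HISAT2 2.0.5 and featureCounts 1.5.0-p1 were named, per the submitters' processing notes. Their settings, strandedness and the genome build were not given in the sources used here. Over 19421 rows FPKM times length had one denominator, and 100% of values were whole reads (tolerance 0.01 reads). The last 393 rows, on another scale and with no desmosome gene, were left out.

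The deposited FPKM values, as log2(FPKM + 1), were tested with limma 3.58.1 (R 4.3.3, lmFit, eBayes with trend, two-sided, no covariates). This main test covered the 11599 genes averaging 1 FPKM or more, and the recovered reads were tested by voom as an alternative. The limma fit was also run on simulated counts with the same spread between replicates for all genes. That run does not measure its error rate on these samples. Exact permutation tests were used for 5 ratios. The genes and lists were chosen with earlier results of these data known. Named were all 10 desmosome genes, ARID1A, the 3 tested genes of each list with the smallest p, and the 3 genes most like DSP. LUM, KRT17, KRT18 and the genes listed as joining under a setting were named after their values were seen. One gene of a related list is not reported here. Promoter windows and gene types came from RefSeq (GRCh38.p14), where 19340 gene IDs matched.

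Replicates differed beyond counting noise (chi-square per degree of freedom 5.38 to 84.7). Deviations from the group means correlated between samples of equal replicate number (across genes, 0.321, 0.187 and 0.315 for numbers 1, 2 and 3). Between samples of unequal number the correlations ran from -0.303 to 0.0859. With 3 samples a group few pairings are possible, so this check cannot decide whether the numbers pair the samples. No label says that they do. Alternatives were 2 other pseudocounts, 2 filters, 3 scalings, voom on recovered reads, the replicate block, and leaving out each sample. Figures were drawn with matplotlib 3.10.9 in Python 3.11.15, from tables made with pandas 2.3.3.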

Additional observations from a re-analysis of the deposited data

How the results depend on the processing

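The calls for PKP2, DSP and JUP held in all 15 alternatives, with adjusted p up to 0.0170, 0.0199 and 0.0486, and that for DSG3 in the 14 in which it was tested (up to 0.0347), since a minimum of 5 FPKM leaves DSG3 out. The desmosome genes that fell were 3, and 5 with voom and with the replicate block, and 3 to 5 when 1 library was left out (5 without shARID1A replicate 3). DSC2 and PERP make the difference, with adjusted p of 0.0423 and 0.0466 by voom. The sign of DSC3 turned without shARID1A replicate 2 (-0.24 to 0.020 over the samples left out), and the cause was not tested. The number of all genes that passed, 1944, was 2740 with the replicate block and 587 to 3403 when 1 library was left out. The share of calls that were higher was 34.9%, and 53.3% after quantile normalization. In the related lists, the number passing with 1 library left out was 0 to 1 for other desmosome genes, 0 to 1 for adherens junctions, 2 to 6 for keratins (of the 6 without shARID1A replicate 3, 1 was higher), and 0 to 4 for each of the plakin, transcription factor and enzyme lists. With the replicate block it was 1 for other desmosome genes, 1 for adherens junctions, 5 for plakins and 4 for transcription factors. After quantile normalization it was 2 for adherens junctions, 1 for transcription factors and 1 for enzymes. By voom it was 1 for adherens junctions, 4 for plakins and 3 for transcription factors. It was 3 for keratins and 1 for enzymes without the filter, and 1 for enzymes at an equal FPKM sum per sample. The cause of these shifts was not tested. The replicate block changed no other call among the desmosome genes. With 3 samples a group an exact test cannot go below 0.1, and PKP1, at 89 to 240 reads, is the desmosome gene that depth limits most.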
